A study of Mus musculus with 6 samples.

Results

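The 10 genes described here belong to the prostanoid and lipoxygenase pathways. They comprise 2 cyclooxygenases (Ptgs1 and Ptgs2), 4 terminal prostanoid synthases (Ptgis, Tbxas1, Ptges and Ptgds), 2 prostanoid receptors (Ptger4 and Ptgir) and 2 lipoxygenases (Alox5 and Alox15). They were chosen by symbol from a table of 22183 genes, and each symbol had a single row. The table came from RNA sequencing of cells sorted and labelled as peritoneal endothelial cells (ECs), from wild-type male C57BL/6J mice aged 8 to 10 weeks. PD mice, a model of peritoneal dialysis, were given high-glucose Dianeal PD fluid into the peritoneal cavity every day for 6 weeks. Saline mice received saline by the same route for the same time. Each group held 3 mice with a library each, and the libraries held 21973426 to 26374292 counted reads. The supplementary methods describe mesenteric cells sorted by flow cytometry as CD31+ CD45-, whereas the sample labels describe magnetic selection on CD31.

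Cyclooxygenases turn arachidonic acid, released from membranes by phospholipases, into prostaglandin H2. Terminal synthases then shape this intermediate into prostacyclin, thromboxane, prostaglandin E2 or prostaglandin D2, which act through receptors on the cell surface. Lipoxygenases oxidise the same fatty acid to leukotrienes and hydroxy acids. In vessels, prostacyclin from ECs relaxes smooth muscle and restrains platelets, thromboxane does the opposite, and prostaglandin E2 and leukotrienes take part in permeability and leukocyte traffic.

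PD mice had higher transcript levels of 9 of the 10, by 1.68-fold for Ptger4 to 7.84-fold for Ptges, with libraries scaled by TMM (trimmed mean of M values). Scaled to endothelial marker genes instead, Ptger4 was lower and Ptgs1 missed the threshold, and scaled to macrophage marker genes, Ptgs1 and Ptger4 were lower and only Ptges, Alox5 and Alox15 were higher. The remaining gene, Ptgds, had too few reads to be tested. In the fit across 14005 genes, 9 of 9 tested members passed an adjusted p of 0.05 as higher (edgeR quasi-likelihood test, Benjamini-Hochberg adjustment), against 31.1% of all genes called higher and 27.8% called lower. In all 9, every PD mouse lay above every saline mouse, as was the case for 34.0% of all genes. The median log2 fold change of the 9 was 1.84, and that of all tested genes 0.017. Levels are given below as CPM, counts scaled to the size of each library with TMM factors, and the plot of each member by mouse shows them together. In such bulk libraries, fewer cells of a type and less RNA per cell cannot be told apart.

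**Figure D1:**
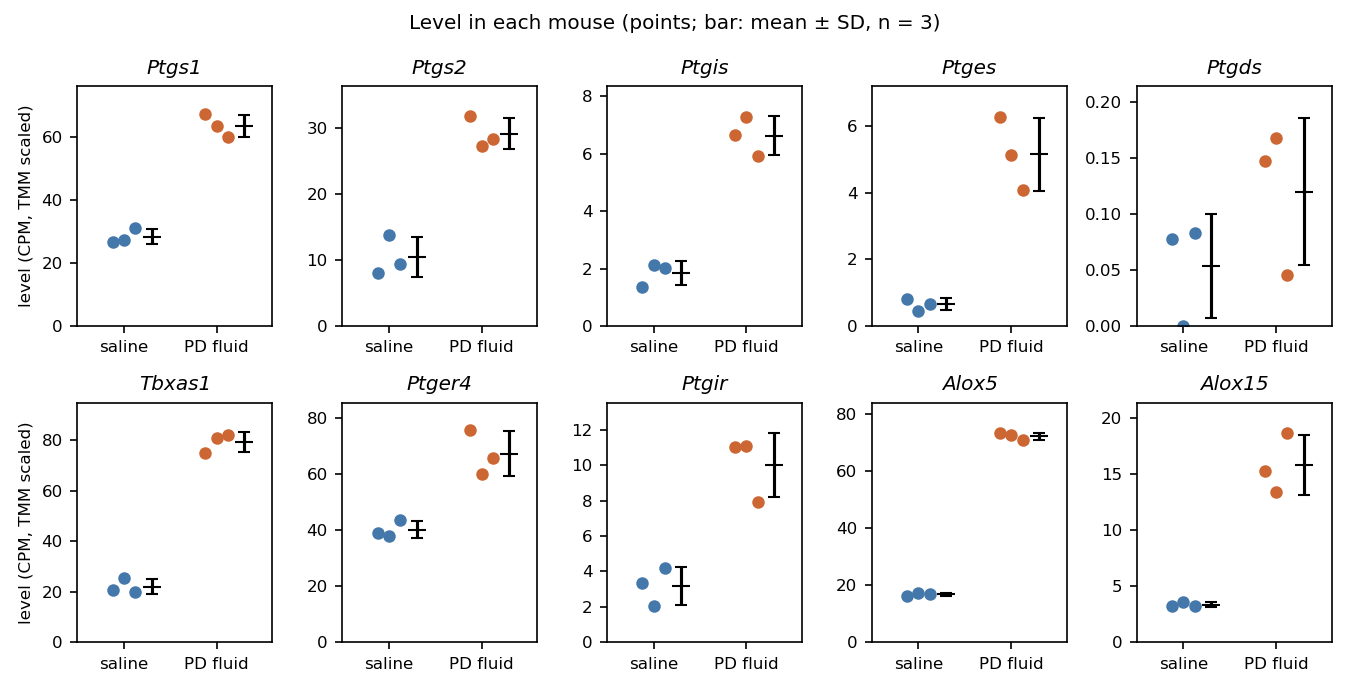
Level of each of the 10 genes in CPM (linear axes from 0, a separate scale for each gene) in the 3 saline mice (blue) and the 3 PD mice (orange), with bars for mean ± SD. The groups are apart in every panel but that of Ptgds, where values lie near 0 and overlap. Scaled to macrophage markers, Ptgs1, Ptgs2 and Ptger4 turn direction, and scaled to endothelial markers Ptger4 does.

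The libraries held many transcripts of cells other than ECs, and markers of several cell types moved with the treatment. The transcript of CD31 (Pecam1) was at 469 ± 19.4 CPM (SD, n = 3) in saline mice and 513 ± 7.85 CPM (SD, n = 3) in PD mice, a log2 difference of 0.13 with an edgeR adjusted p of 0.0704 (0.0253 without saline mouse 2). That of CD45 (Ptprc), a leukocyte marker that the flow sort selects against, was at 2372 ± 127 CPM and 1472 ± 63.6 CPM. Summed over 10 macrophage markers, the level was 2430 to 2581 CPM in saline mice and 9443 to 10195 CPM in PD mice, with 10 of 10 higher. CD31 thus differed little, CD45 was lower and macrophage markers were higher in PD mice. The sum of 12 endothelial markers was 1112 to 1118 CPM and 1827 to 1948 CPM, with 11 of 12 higher. Fibroblast markers (8 of 8 higher) summed to 94.9 to 103 CPM and 852 to 888 CPM, and mesothelial markers (10 of 10 higher) to 33.5 to 39.5 CPM and 235 to 268 CPM. Smooth muscle and pericyte markers (8 of 8 higher) went from 280 to 299 CPM to 453 to 501 CPM, and mast cell markers (8 of 9 higher) from 253 to 262 CPM to 394 to 445 CPM. Markers of stromal cells and mesothelium were thus also higher. B cell markers summed to 11092 to 11633 CPM in saline mice and 9324 to 9751 CPM in PD mice, with 1 of 6 higher and 5 lower. T and NK cell markers (1 of 8 higher, 3 lower) were at 1644 to 1740 CPM and 1410 to 1584 CPM. Pancreatic acinar markers (8 of 8 tested higher) were nearly absent from saline mice, at 2.23 to 5.81 CPM, and reached 6887 to 7767 CPM in PD mice. In both groups CD45 was thus above CD31, and the summed B cell and macrophage markers above the summed endothelial markers, against the labelled cell type. Single genes made up most of the macrophage and B cell sums, and of some others. Lyz2 averaged 1633 CPM (saline) and 6688 CPM (PD), and Ighm, the B cell marker that was higher, 6189 CPM (saline) and 7107 CPM (PD). The other macrophage markers together lay below the endothelial sum under saline and above it under PD fluid. The other B cell markers together lay above it in both groups. Rgs5 made up most of the smooth muscle and pericyte sum, at 222 CPM (saline) and 267 CPM (PD). Its log2 fold change of 0.26 under TMM scaling was the smallest of that list, beside a list median of 1.59. Dcn made up most of the fibroblast sum, at 60.1 CPM (saline) and 550 CPM (PD). The part of these cell types in the results on the 10 genes was not tested.

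The 5 promoters below are shown because they belong to the most abundant members and to the inducible cyclooxygenase. Under TMM scaling these members were higher by differing amounts, from 0.74 (Ptger4) to 2.10 (Alox5) on the log2 scale. The sequences hold the 250 bases before the transcription start (RefSeq, GRCm38.p6), printed 5′ to 3′ on the gene's strand, and 8 of the 10 members had such an entry. Capitals mark matches, on either strand, to TATAAA (the core promoter element), to CCAAT (bound by NF-Y), to GGGCGG (bound by Sp factors), to TGANTCA (AP-1 type), to TGACGT (the cyclic AMP response core), to an NF-kB type site, to CACGTG (an E-box) and to AGAGGAA (a purine-rich site of the PU.1 type). These motifs were chosen with the data known. The windows lie at chr6:38918736-38918985 (+) for Tbxas1, chr6:116461179-116461428 (-) for Alox5, chr2:36230176-36230425 (+) for Ptgs1, chr1:150099781-150100030 (+) for Ptgs2 and chr15:5244188-5244437 (-) for Ptger4. The RefSeq start of Tbxas1 lies within the gene as GENCODE draws it.
Tbxas1: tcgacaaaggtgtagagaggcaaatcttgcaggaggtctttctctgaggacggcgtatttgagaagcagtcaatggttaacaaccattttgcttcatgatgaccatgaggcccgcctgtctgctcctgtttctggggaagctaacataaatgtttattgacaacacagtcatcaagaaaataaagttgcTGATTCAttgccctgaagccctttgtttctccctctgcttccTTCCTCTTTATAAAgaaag
Alox5: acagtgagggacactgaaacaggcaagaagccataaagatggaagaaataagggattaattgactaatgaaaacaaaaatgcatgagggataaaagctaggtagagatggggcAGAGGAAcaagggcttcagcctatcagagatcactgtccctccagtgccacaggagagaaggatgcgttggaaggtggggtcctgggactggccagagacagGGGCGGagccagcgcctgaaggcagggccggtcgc
Ptgs1: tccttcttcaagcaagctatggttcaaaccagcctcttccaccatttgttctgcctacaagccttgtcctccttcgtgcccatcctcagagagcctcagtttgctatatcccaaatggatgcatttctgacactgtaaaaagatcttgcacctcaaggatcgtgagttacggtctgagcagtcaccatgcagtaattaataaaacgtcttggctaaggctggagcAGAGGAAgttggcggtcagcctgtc
Ptgs2: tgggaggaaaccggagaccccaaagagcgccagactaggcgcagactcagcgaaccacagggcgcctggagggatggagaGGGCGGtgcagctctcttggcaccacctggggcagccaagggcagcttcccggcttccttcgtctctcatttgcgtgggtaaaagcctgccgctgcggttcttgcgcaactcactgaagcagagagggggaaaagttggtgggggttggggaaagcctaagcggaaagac
Ptger4: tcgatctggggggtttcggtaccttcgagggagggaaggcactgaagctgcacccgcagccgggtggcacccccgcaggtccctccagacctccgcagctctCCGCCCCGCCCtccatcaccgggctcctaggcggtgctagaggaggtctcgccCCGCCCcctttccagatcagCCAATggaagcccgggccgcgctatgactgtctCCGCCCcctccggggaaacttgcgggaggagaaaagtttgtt

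The purine-rich AGAGGAA stood in 5 of the 8 member windows (Tbxas1, Alox5, Ptgs1, Ptges and Ptgir) and in 10.4% of 32851 windows of the same 300 bases, which add the 50 bases after the start. GGGCGG stood in the windows of Ptgs2, Ptges, Alox5, Ptgir and Ptger4, and in 35.7% of all windows. The window of Tbxas1 was the sole member window with TATAAA, which begins 11 bases before the start, overlaps in part with a match of the same motif on the other strand and stood in 13.6% of all windows. Tbxas1 and Ptgds had the AP-1 motif TGANTCA, against 7.81% of all. In Ptgs2 a TGACGT core (7.51% of all) and an overlapping CACGTG (7.15% of all) lay 13 and 17 bases after the annotated start, outside the bases shown. Ptger4 alone had CCAAT (37.4% of all), and the NF-kB type motif (5.56% of all) was in no member window. These are matches of letters, not binding sites.

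Ptgs1 encodes cyclooxygenase-1, the constitutive enzyme of the pathway (ENSMUSG00000047250, chr2:36230426-36252272 on GRCm38, plus strand). It was at 26.8, 27.2 and 31.1 CPM in the saline mice and 67.3, 63.5 and 60.2 CPM in the PD mice. The lowest PD mouse was well above the highest saline mouse. The mean rose from 28.4 ± 2.36 to 63.7 ± 3.53 CPM (SD, n = 3), a log2 fold change of 1.17 ± 0.09 (SE) with an edgeR adjusted p of 1.11e-06. Against the endothelial markers the log2 difference was 0.15 (adjusted p = 0.196), and against the macrophage markers it was -0.47 (adjusted p = 0.000452).

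Ptgs2 encodes cyclooxygenase-2, the inducible enzyme (ENSMUSG00000032487, chr1:150100031-150108227, plus strand). The saline mice were at 8.08, 13.8 and 9.40 CPM and the PD mice at 31.8, 27.2 and 28.4 CPM. Saline mouse 2 was the highest of its group and still below every PD mouse. The log2 fold change was 1.49 ± 0.17 (SE), or 2.81-fold, with an edgeR adjusted p of 3.25e-05. It ranged from 1.34 to 1.74 as each mouse was left out. Relative to the endothelial markers Ptgs2 was also higher, by 0.46 (adjusted p = 0.0217), and relative to the macrophage markers it was at -0.14 (adjusted p = 0.42). The plot of ratios sets both cyclooxygenases against each other within each mouse. The Ptgs2 to Ptgs1 ratio of FPKM (read density adjusted for transcript length and library size) was 0.238 ± 0.0758 in saline mice and 0.295 ± 0.0159 in PD mice (SD, n = 3). The groups overlapped in this ratio, and the difference of 0.35 on the log2 scale gave p = 0.4 in a two-sided exact permutation test (0.8 after adjustment over 4 ratios), in which 3 mice against 3 allow no p under 0.1.

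Among the synthases, the highest level belonged to Tbxas1, which encodes thromboxane A synthase (ENSMUSG00000029925, chr6:38875404-39084585, plus strand). It was at 20.8, 25.7 and 19.9 CPM in saline mice and at 74.9, 80.8 and 82.2 CPM in PD mice. The groups were far apart, with means of 22.1 ± 3.12 and 79.3 ± 3.85 CPM (SD, n = 3). The log2 fold change was 1.84 ± 0.10 (SE; edgeR adjusted p = 9.39e-08). It remained higher against the endothelial markers, at 0.82 (adjusted p = 9.27e-06), and was at 0.21 against the macrophage markers (adjusted p = 0.073). Thromboxane synthase is also known from platelets. Of 5 platelet markers 3 were tested and 1 was higher, Pf4, while Ppbp (0.14, adjusted p = 0.564) and Itga2b (0.19, adjusted p = 0.434) did not pass the test. The list summed to 36.0 to 38.0 CPM in saline mice and 97.5 to 104 CPM in PD mice. Pf4 made up most of it, at 27.5 CPM (saline) and 89.7 CPM (PD), and was at 0.068 against the macrophage markers (edgeR adjusted p = 0.438).

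Ptgis, encoding prostacyclin synthase (ENSMUSG00000017969, chr2:167191805-167240604, minus strand), was read far less often. It was at 1.37, 2.12 and 2.03 CPM in saline mice, from 35 to 49 reads each. PD mice were at 6.66, 7.29 and 5.93 CPM, from 131 to 181 reads. Every PD mouse exceeded the highest saline mouse by over 2-fold. The log2 fold change was 1.85 ± 0.22 (SE), 3.62-fold, with an edgeR adjusted p of 3.39e-05. Relative to endothelial markers it was 0.83 (adjusted p = 0.00325) and relative to macrophage markers 0.22 (adjusted p = 0.357). Prostacyclin and thromboxane act in opposition on vessels and platelets, and the transcripts of their synthases kept nearly the same FPKM ratio. Ptgis to Tbxas1 was 0.0787 ± 0.0160 in saline mice and 0.0790 ± 0.0100 in PD mice (SD, n = 3). The log2 difference was 0.017 (p = 1 in a two-sided exact permutation test, and 1 after adjustment over the 4 ratios). It lay between -0.11 and 0.17 as single mice were left out, and was below 0 without saline mouse 1 or 2 or PD mouse 1 or 2.

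Ptges encodes the inducible microsomal prostaglandin E synthase (ENSMUSG00000050737, chr2:30889471-30929863, minus strand). It had 21, 10 and 16 reads in saline mice and 170, 122 and 90 reads in PD mice. At 0.820, 0.461 and 0.662 CPM against 6.25, 5.11 and 4.08 CPM, the groups were clearly apart, while the PD mice differed among themselves by more than the saline mice did. Its log2 fold change of 2.97 ± 0.29 (SE; edgeR adjusted p = 8.47e-06) was the highest of the 9 under TMM scaling, and it rested on the lowest counts. The change stood above the endothelial markers by 1.95 (adjusted p = 7.99e-06) and above the macrophage markers by 1.34 (adjusted p = 0.00115), where the highest single macrophage marker, C1qa, was at 0.74. Under TMM scaling Ptges lay within the range of the fibroblast markers, from 1.94 (Pi16) to 3.91 (Lum). It lay as well within that of the mesothelial markers, from 2.02 (Gpm6a) to 3.92 (Msln). The wider ranges of the tested neutrophil markers (0.046 for Cxcr2 to 9.14 for Camp) and eosinophil markers (-1.31 for Il5ra to 4.41 for Epx) also held it. Median log2 fold changes were 3.05 for fibroblast, 3.57 for mesothelial and 4.20 for neutrophil markers. They were 1.59 for smooth muscle and pericyte and 0.72 for mast cell markers. The part of these cells in the change of Ptges was not tested. The Ptges to Ptgis ratio of FPKM was 0.333, 0.126 and 0.188 in saline mice and 0.543, 0.403 and 0.397 in PD mice. All PD mice were above all saline mice in this ratio, and p was 0.1 in the two-sided exact permutation test, the smallest it can give, and 0.4 after adjustment over the 4 ratios.

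Ptgds, the lipocalin-type prostaglandin D synthase (ENSMUSG00000015090, chr2:25466709-25470046, minus strand), was near the limit of detection. It had 2, 0 and 2 reads in saline mice and 4, 4 and 1 in PD mice. The groups overlapped, and no fold change is given, since the saline mice lay at or under a floor of 3 reads per library.

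**Figure D2:**
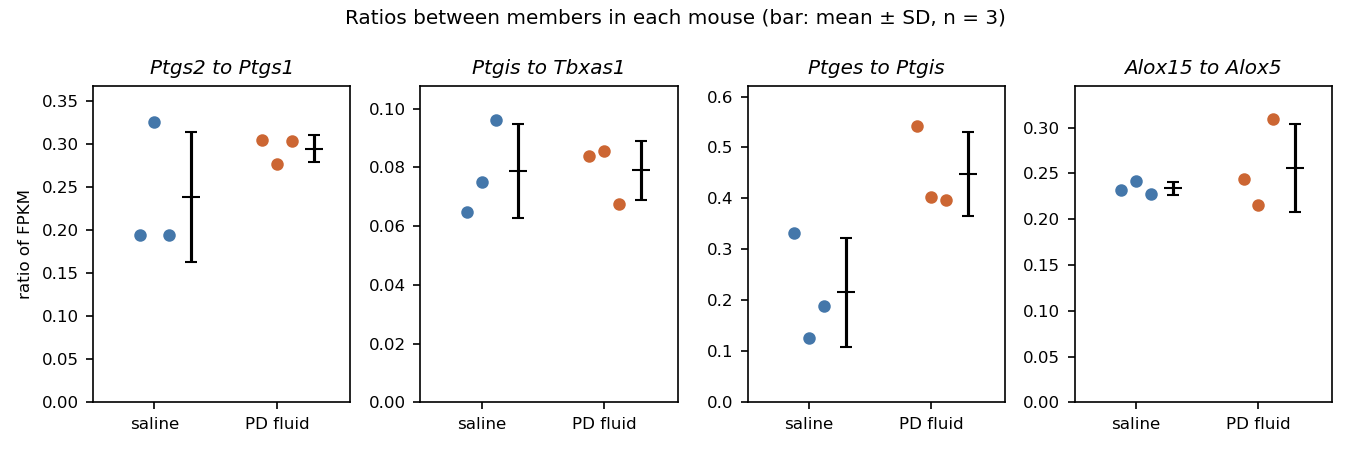
Ratio of FPKM of 4 pairs of members in each saline mouse (blue) and PD mouse (orange), on linear axes from 0 with bars for mean ± SD (n = 3). The groups separate for Ptges to Ptgis (0.126 to 0.333 against 0.397 to 0.543) and overlap for the other 3 pairs.

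Ptger4 encodes the EP4 receptor for prostaglandin E2, which raises cyclic AMP (ENSMUSG00000039942, chr15:5206661-5244187, minus strand). It was at 39.2, 37.9 and 43.6 CPM in saline mice and at 75.9, 60.3 and 65.9 CPM in PD mice. The PD mice were all higher and more widely spread. The log2 fold change of 0.74 ± 0.10 (SE; edgeR adjusted p = 8.61e-05) was the smallest of the 9 under TMM scaling, and the direction turned against the endothelial markers (-0.28, adjusted p = 0.0222) and the macrophage markers (-0.89, adjusted p = 2.73e-06). Of its exonic bases, 82 are shared with Ttc33, a gene with 7584 reads over the 6 libraries, and 1015 with the processed pseudogene Gm15937, both on the other strand, and the library kit named in the labels does not mark strand. Other members also share exonic bases with a gene on the other strand. These are Ptgs1 (148 with Gm43621), Ptgis (156 with 1110018N20Rik) and Tbxas1 (144 with Gm42962).

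Ptgir encodes the prostacyclin receptor, known from platelets and smooth muscle (ENSMUSG00000043017, chr7:16906490-16910905, plus strand). The saline mice were at 3.36, 2.03 and 4.18 CPM and the PD mice at 11.0, 11.1 and 7.93 CPM. Saline mouse 2 was the lowest of all 6, and PD mouse 3 the lowest of its group but above the saline mice. The log2 fold change was 1.64 ± 0.24 (SE; edgeR adjusted p = 0.000191) and varied from 1.42 to 1.88 as single mice were left out. It was 0.63 against the endothelial markers (adjusted p = 0.0142) and 0.0052 against the macrophage markers (adjusted p = 0.985). Under TMM scaling the median log2 fold change was 1.59 for smooth muscle and pericyte markers and 0.19 for the 3 tested platelet markers. The part of these cells in the change of Ptgir was not tested.

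Alox5 encodes 5-lipoxygenase, which starts leukotriene synthesis and is typical of myeloid cells (ENSMUSG00000025701, chr6:116410077-116461178, minus strand). It was at 16.1, 17.4 and 16.8 CPM in saline mice and at 73.3, 72.5 and 70.7 CPM in PD mice. The mice of each group lay close together, and the change of 2.10 ± 0.08 (SE) on the log2 scale had the lowest adjusted p of the 9, 3.98e-09 in edgeR. Leaving out single mice moved it between 2.09 and 2.14. Neutrophils also carry 5-lipoxygenase, and their markers (7 of 8 tested higher) summed to 18.6 to 21.2 CPM in saline mice and 235 to 255 CPM in PD mice. Alox5 was higher against the mean of both marker sets, by 1.08 (endothelial, adjusted p = 3.17e-08) and by 0.47 (macrophage, adjusted p = 0.000217). The macrophage markers themselves ran from -1.40 (Marco) to 0.74 (C1qa) under that scaling, with Adgre1 at 0.41 and C1qb at 0.59, so that Alox5 lay within their range.

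Alox15 encodes 12/15-lipoxygenase, which in mice is known from resident peritoneal macrophages and eosinophils (ENSMUSG00000018924, chr11:70344152-70352031, minus strand). It was at 3.20, 3.60 and 3.27 CPM in saline mice and at 15.3, 13.4 and 18.7 CPM in PD mice. Again no PD mouse came near the saline range. The log2 fold change of 2.23 ± 0.16 (SE; edgeR adjusted p = 9.07e-07) exceeded that of the endothelial markers by 1.22 (adjusted p = 7.66e-06) and that of the macrophage markers by 0.60 (adjusted p = 0.00536). Of the single macrophage markers only C1qa (0.74) lay above it under that scaling. C1qb (0.59) lay just below, and Gata6 was at -0.15 and Timd4 at -0.69. Eosinophil markers summed to 40.7 to 41.7 CPM in saline mice and 31.1 to 37.3 CPM in PD mice, with 4 of 5 higher and Il5ra lower. The lower sum came from Il5ra alone, which made up most of it in saline mice (34.5 CPM on average, 14.0 CPM in PD mice). Prg2, the next in level, went from 4.75 to 13.4 CPM. The Alox15 to Alox5 ratio of FPKM was 0.234 ± 0.00703 in saline mice and 0.256 ± 0.0479 in PD mice (SD, n = 3), a log2 difference of 0.11 with overlapping groups (two-sided exact permutation p = 0.7, or 0.933 after adjustment). Without PD mouse 3 it was -0.029.

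**Figure D3:**
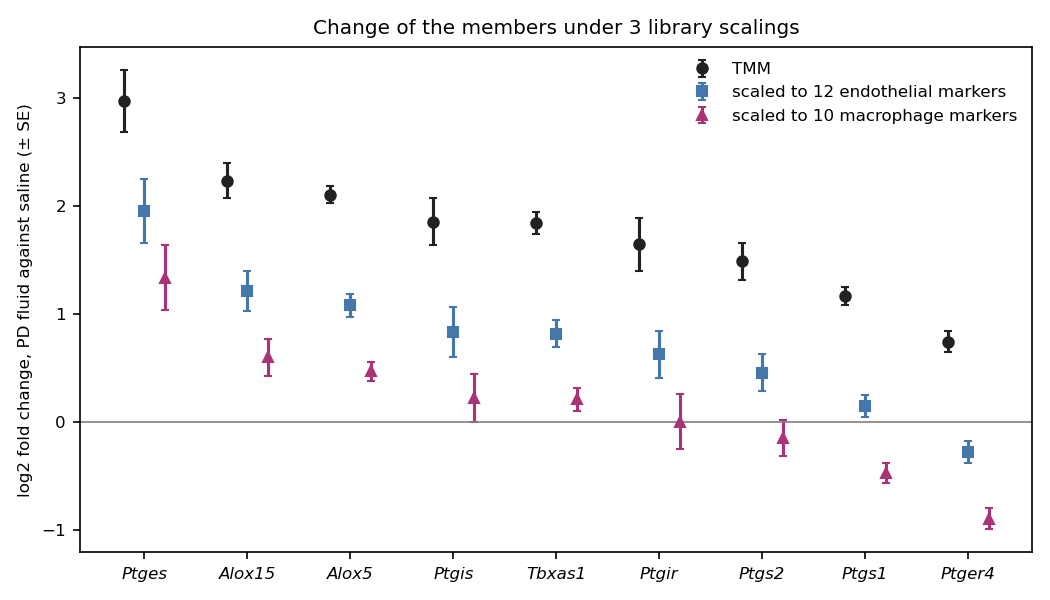
Log2 fold change (PD against saline, ± SE, linear axis) of the 9 tested members with libraries scaled by TMM (black circles), to 12 endothelial markers (blue squares) and to 10 macrophage markers (purple triangles). Ptges is highest under all 3 scalings, and Ptger4 lies above 0 only under TMM.

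The choice of scaling set how many members were called. With libraries scaled to the geometric mean of 12 endothelial markers, the median log2 fold change over all genes was -1.002, and 7 members were higher and 1 (Ptger4) lower. With 10 macrophage markers as the reference the median over all genes was -1.62, and 3 members (Ptges, Alox5 and Alox15) were higher and 2 (Ptgs1 and Ptger4) lower. Over all genes these scalings called 1089 higher against 10259 lower and 470 higher against 11903 lower. Such a scaling shifts every gene by about the same amount, so a member's place relative to the median gene hardly changes. Ptger4, for example, was at -0.28 where the median gene was at -1.002. This is no added evidence for the members.

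Adjusted for transcript length, the order of the members differed between the groups. In saline mice Ptger4 led at 12.2 FPKM, followed by Tbxas1 (11.2 FPKM) and Ptgs1 (9.86 FPKM), and each overlapped with its neighbour. Alox5 (5.93 FPKM), Ptgs2 (2.33 FPKM) and Alox15 (1.39 FPKM) followed without overlap. Ptgir (0.988 FPKM) and Ptgis (0.879 FPKM) overlapped, and Ptges (0.177 FPKM) and Ptgds were lowest. The saline mice thus held a leading trio, a middle range and 4 genes under 1 FPKM. In PD mice Tbxas1 led at 40.1 FPKM, above Alox5 at 25.7 FPKM and Ptgs1 at 22.3 FPKM, with no overlap between these 3 neighbours. Ptger4 (20.6 FPKM) overlapped with Ptgs1, Ptgs2 (6.57 FPKM) with Alox15 (6.56 FPKM), and Ptgis (3.16 FPKM) with Ptgir (3.11 FPKM). Ptges, at 1.42 FPKM, again stood above Ptgds alone. Within each mouse, Tbxas1 transcripts were thus far more abundant than those of Ptgis in both groups.

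**Figure D4:**
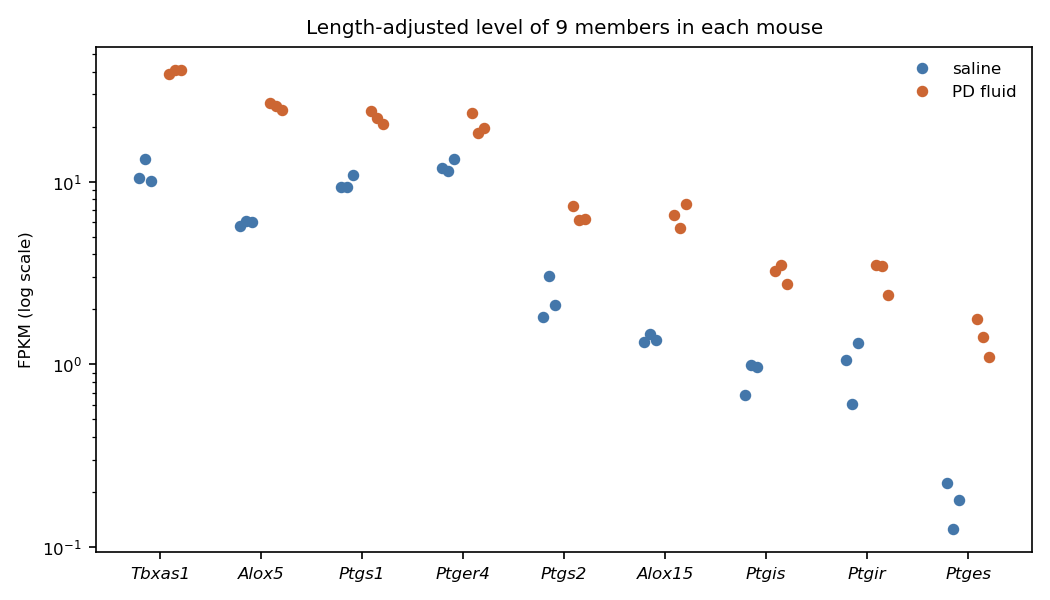
Length-adjusted level (FPKM, log axis) of 9 members in each saline mouse (blue) and PD mouse (orange), ordered by the PD mean. Ptgds is left out because a mouse is listed at 0. Tbxas1 is highest in PD mice and Ptges lowest in both groups.

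For each tested member, the genes with the nearest profile over the 6 mice were sought among all tested genes, by Euclidean distance of centred log2 CPM. Tbxas1 lay nearest to Cd302 (0.0883) and Alox5ap (0.121), and Alox5 to Ccrl2 (0.136) and Adgre1 (0.144), the gene of the macrophage marker F4/80. Ptges lay nearest to Tnxb (0.256) and Col3a1 (0.295), which encode extracellular matrix proteins. The nearest genes were Abhd15 (0.104) and Pwwp2b (0.124) for Ptgs1, Cox6a2 (0.168) and Hecw2 (0.232) for Ptgs2, and Kcnab1 (0.143) and B4galt6 (0.254) for Ptgis. They were Mall (0.0967) and Dlc1 (0.128) for Ptger4, C130050O18Rik (0.249) and Dysf (0.270) for Ptgir, and Adgrg3 (0.256) and Tmem37 (0.268) for Alox15. Each of these neighbours was itself called higher in PD mice under TMM scaling. This follows from the choice, since a near profile over the same mice shares the member's group difference.

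Of 44 other genes of the pathway listed, 43 had a row and 32 were tested. In PD mice 20 were higher, 3 were lower and 9 did not pass the test under TMM scaling, whereas 8 were higher and 17 lower against endothelial markers, and 3 were higher and 23 lower against macrophage markers. Their median log2 fold change was 0.49, beside 1.84 for the members.

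In arachidonate release, 2 of 4 tested genes were higher. Pla2g4a, the cytosolic phospholipase A2 that frees arachidonate, rose by 0.87 ± 0.11 (log2, SE; edgeR adjusted p = 7.27e-05), but was at -0.15 against endothelial and -0.76 against macrophage markers. Pla2g6 was at 0.43 (adjusted p = 0.0334), and likewise turned negative under both marker scalings (-0.59 and -1.20). Its call was lost without saline mouse 1, PD mouse 1 or PD mouse 3 (adjusted p = 0.111, 0.0853 and 0.117). Pla2g2d, a secreted phospholipase, was at -0.15 (adjusted p = 0.0949).

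Of the 5 other prostanoid synthases, 3 were higher and 2 lower, the latter being Ptges2 (-0.33, edgeR adjusted p = 0.00771, but 0.0502 without PD mouse 2) and Akr1b3 (-0.24, adjusted p = 0.00871). Hpgds, the haematopoietic prostaglandin D synthase, went from 16.8 ± 0.715 to 42.3 ± 2.70 CPM (SD, n = 3), a log2 fold change of 1.33 ± 0.09 (SE) that fell to -0.31 against macrophage markers. Per length, it stood at 4.83 FPKM in saline mice, where Ptgds, its lipocalin-type counterpart, was at 0.0693 FPKM. Ptges3, the cytosolic prostaglandin E synthase, was higher by 0.29 (edgeR adjusted p = 0.00482) and Prxl2b, a prostamide and prostaglandin F synthase, by 0.76 (adjusted p = 0.000159), and both turned negative under the marker scalings. The log2 values of the 3 prostaglandin E synthases under TMM scaling were 2.97 for Ptges, 0.29 for Ptges3 and -0.33 for Ptges2.

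Among 4 tested prostanoid receptors outside the members, Ptger3 and Ptger2 were higher. Ptger3 encodes the EP3 receptor for prostaglandin E2 and went from 1.11 ± 0.474 to 6.35 ± 1.27 CPM (SD, n = 3), a log2 fold change of 2.52 ± 0.30 (SE; edgeR adjusted p = 4.21e-05). Ptger2 (EP2) was higher by 0.54 (adjusted p = 0.0155), though lower under both marker scalings. It missed the threshold without saline mouse 1 (adjusted p = 0.0569) or PD mouse 3 (0.0512). Tbxa2r, the thromboxane receptor, was at 23.0 ± 5.30 and 22.6 ± 2.52 CPM (SD, n = 3), and its log2 difference of -0.027 ± 0.15 (SE) did not pass the test (adjusted p = 0.89). It changed sign without saline mouse 3 (0.17) or PD mouse 3 (0.041). The ligand's synthase, Tbxas1, was 3.59-fold higher under TMM scaling.

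Of 6 transport and inactivation genes, 4 were higher. Slco2a1, the prostaglandin uptake transporter, was higher by 1.32 ± 0.12 (log2, SE; edgeR adjusted p = 6.55e-06), and Hpgd, which inactivates prostaglandins by oxidation, by 0.37 (adjusted p = 0.012). Both were lower against macrophage markers (-0.32 and -1.26), and Hpgd also against endothelial markers. Ptgr1 was higher by 1.20 (adjusted p = 0.00111), and was at -0.43 against macrophage markers. Ptgr2 (-0.19, adjusted p = 0.0993) and Cbr1 (-0.057, adjusted p = 0.572) did not pass the test.

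In leukotriene synthesis, the partners of Alox5 differed. Alox5ap, encoding the protein that presents arachidonate to 5-lipoxygenase, went from 17.5 ± 2.02 to 60.6 ± 2.71 CPM (SD, n = 3), by 1.79 ± 0.10 on the log2 scale (SE; edgeR adjusted p = 8.46e-08). Ltc4s, the leukotriene C4 synthase, went from 8.11 ± 0.868 to 34.9 ± 4.78 CPM (SD, n = 3), by 2.11 ± 0.13 (SE; adjusted p = 2.75e-07). Against macrophage markers Alox5ap was at 0.16 (edgeR adjusted p = 0.15) and Ltc4s at 0.47 (adjusted p = 0.0067). Lta4h, which makes leukotriene B4 and is expressed in most cells, was at 185 CPM in both groups, with a log2 difference of 0.0039 ± 0.076 (SE; adjusted p = 0.968) that ran from -0.026 to 0.073 as single mice were left out, below 0 without saline mouse 1 or 3 or PD mouse 2 or 3. The lipoxygenase Alox8 was at 1.25 ± 0.49 (SE; adjusted p = 0.0476) with overlapping groups, and it lost that call without saline mouse 1 or 2 or PD mouse 1 or 3 (adjusted p = 0.143, 0.119, 0.0847 and 0.166).

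Of 6 tested receptors for leukotrienes and resolution mediators, 5 were higher and 1 lower. Ltb4r1, the high-affinity leukotriene B4 receptor, was higher by 1.71 ± 0.12 (log2, SE; edgeR adjusted p = 7.27e-07) and Cysltr1, a cysteinyl leukotriene receptor, by 1.09 ± 0.10 (adjusted p = 4.14e-06). Against macrophage markers Ltb4r1 was at 0.074 (edgeR adjusted p = 0.607) and Cysltr1 turned to -0.55. Fpr2, a receptor for lipoxin and formyl peptides, went from 0.332 to 3.65 CPM (3.43 ± 0.38, SE; adjusted p = 2.47e-05). Cmklr1 was higher by 1.59 (adjusted p = 5.71e-05), and was at -0.042 against macrophage markers. Gpr18 was lower, going from 279 ± 17.9 to 155 ± 6.19 CPM (SD, n = 3), by -0.85 on the log2 scale (adjusted p = 1.59e-06). The summed level of the list was 293 to 330 CPM in saline mice and 220 to 235 CPM in PD mice, lower although 5 of its genes rose under TMM scaling.

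**Figure D5:**
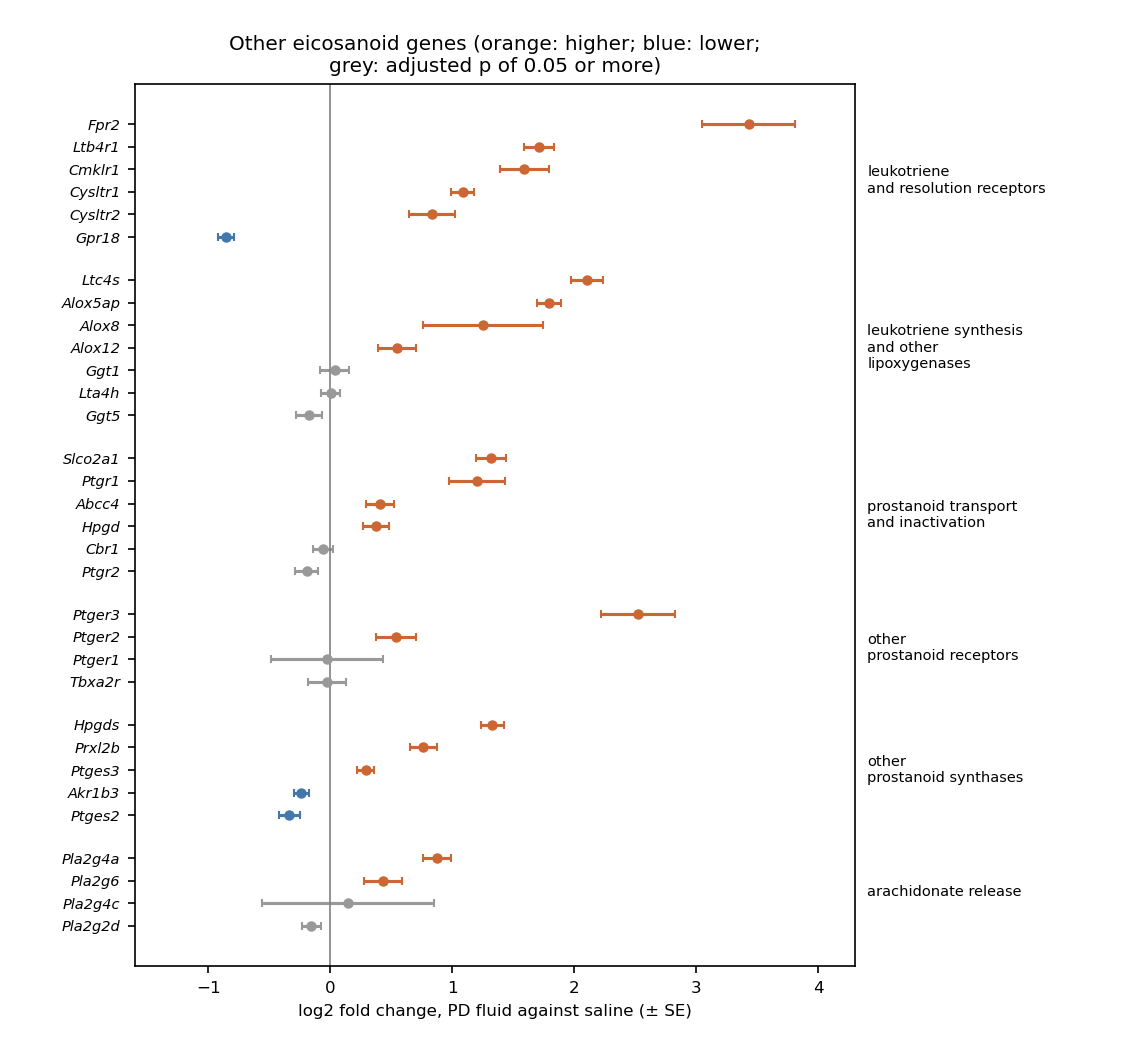
Log2 fold change (PD against saline, TMM scaling, ± SE) of 32 tested pathway genes outside the 10, grouped by role, in orange where higher, blue where lower and grey where the adjusted p was 0.05 or more. The 3 lower genes are Ptges2, Akr1b3 and Gpr18, and Fpr2 lies farthest to the right. Against macrophage markers 23 of the 32 are lower.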

How the data were processed

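RNA was sequenced from cells sorted and labelled as peritoneal ECs, from 3 saline and 3 PD mice, grouped by the treatment label. The authors deposited whole-number read counts per gene and mouse, without normalization, and FPKM values that they computed per mouse. Their group means, log2 fold change, p-value and FDR columns hold their own comparison and were not used, and 0 sample columns were left unmatched. The submitters' processing notes name fastp 0.18.0, Bowtie2 2.2.8, HISAT2, StringTie and RSEM, with no roles. The genome build and annotation are not given in the sources used here. Reads shared between overlapping genes or near-identical copies are therefore counted in an unknown way.

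Counts were filtered with filterByExpr (14005 of 22183 genes kept), scaled by TMM and tested with the quasi-likelihood test of edgeR 4.0.16 in R 4.3.3, with Benjamini-Hochberg adjustment over all tested genes and a threshold of 0.05. Standard errors were derived from the F statistic. The study's methods name limma, and limma-voom (limma 3.58.1) was an alternative, as were DESeq2 1.42.0, its size factors, no filter (at least 1 read), a replicate block, marker scalings, limma on log2(FPKM + 0.1) and leaving out each mouse. FPKM served for levels between genes and for ratios. The 3 libraries of a group differed beyond sampling noise. Totals of 21973426 to 26374292 reads per library limit the precision of low genes, and a floor of 3 reads per library was used, which covers counting error only.

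The members, gene lists and motifs were chosen with earlier results of these data known. Named were the 10 members, the 3 most abundant tested genes of each pathway group by FPKM, every pathway gene called beyond 1 on the log2 scale, 3 cell markers (Pecam1, Ptprc and Adgre1) and the 2 nearest profiles of each tested member on log2(CPM + 0.1). Ptges2 and other list genes outside that rule were named after their values were seen. Positions are from GENCODE M21 (GRCm38), which held 22128 of the identifiers, and promoters from RefSeq. The code was tested on simulated data.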

Additional observations from a re-analysis of the deposited data

How the results depend on the processing

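The 9 members stayed higher and past the threshold under DESeq2, its size factors in edgeR, limma-voom, limma on FPKM, no low count filter, the replicate block and every omission of a mouse. Leaving out each mouse gave 6961 to 7931 genes called (3852 to 4289 higher, 3108 to 3708 lower), 9 members each time, and 20 to 23 pathway genes (17 to 20 higher, 2 to 3 lower). With the replicate number as a block, 4242 genes were higher and 3667 lower, with 9 members called. Same-numbered mice did not deviate together (r = 0.10, 0.041 and -0.17), and the highest correlations were between saline mouse 2 and PD mouse 3 (0.23) and saline mouse 3 and PD mouse 1 (0.21). No pairing by number was seen, though 3 mice a group are too few to exclude it. Without a low count filter, Ptgds did not pass the test (edgeR adjusted p = 0.49).

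Only the marker scalings changed calls of members, since they shift every gene by a common amount. Endothelial scaling gave 1089 genes higher and 10259 lower, 1 member lower, and 8 pathway genes higher and 17 lower. Macrophage scaling gave 12373 called (470 higher, 11903 lower), 5 members (3 higher, 2 lower), and 3 pathway genes higher and 23 lower. Members that lost their call or turned were Ptgs1 at 0.15 and Ptger4 at -0.28 under endothelial scaling, and Ptgs1 at -0.47, Ptgs2 at -0.14, Ptgis at 0.22, Tbxas1 at 0.21, Ptger4 at -0.89 and Ptgir at 0.0052 under macrophage scaling. Other named genes that turned under endothelial scaling were Pla2g4a (-0.15), Pla2g6 (-0.59), Ptges3 (-0.73), Prxl2b (-0.25), Ptger2 (-0.48), Hpgd (-0.65), Lta4h (-1.02), Pecam1 (-0.89), Mall (-0.26) and Dlc1 (-0.28). Under macrophage scaling they were Pla2g4a (-0.76), Pla2g6 (-1.20), Ptges3 (-1.35), Prxl2b (-0.87), Ptger2 (-1.10), Hpgd (-1.26), Lta4h (-1.63), Cysltr1 (-0.55), Hpgds (-0.31), Slco2a1 (-0.32), Ptgr1 (-0.43), Alox8 (-0.38), Cmklr1 (-0.042), Pecam1 (-1.50), Abhd15 (-0.42), Pwwp2b (-0.45), Cox6a2 (-0.052), Hecw2 (-0.12), Mall (-0.88), Dlc1 (-0.90), C130050O18Rik (-0.00020) and Dysf (-0.048).

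Values near 0 changed sign elsewhere. Lta4h was at -0.0069 with DESeq2 and its size factors and -0.026 to 0.073 without single mice, and Tbxa2r at 0.023 with limma on FPKM and -0.14 to 0.17 without single mice. The log2 differences of Ptgis to Tbxas1 (-0.11 to 0.17) and Alox15 to Alox5 (-0.029 to 0.23) also crossed 0. With 3 mice a group, ratios cannot reach p under 0.1, and the low counts of Ptgds allow no statement on its change.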
